A study of Oryctolagus cuniculus with 6 samples.

Results

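The genes described here were the ligands of transforming growth factor beta (TGF-beta), TGFB1, TGFB2 and TGFB3, their receptors TGFBR1 and TGFBR2, and the latent TGF-beta binding proteins LTBP1 and LTBP2, in smooth muscle cells of the rabbit basilar artery. Probes were taken when the gene name or description in the scanner files gave 1 of these 7 genes. This found 11 of 43603 probes, 3 by gene name and 8 by description, for 6 of the genes, out of 9809 genes that the array's probes name by symbol. LTBP2 had no probe and drops out. This matching of probes used no measured value, but the genes were chosen with earlier results of these data known.

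The ligated group consisted of female New Zealand White rabbits in which both common carotid arteries were tied to raise flow. The sham group had the same surgery with the arteries exposed and not tied. Both groups were studied at day 5 after surgery, with 3 rabbits and 3 arrays in each. No age, genotype, transgene or drug treatment is named for either group, other than pentobarbital to end the study. The cells of both groups came from whole arteries perfused with elastase and collagenase, and were released by trituration without a sorting step in the protocol.

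The TGF-beta ligands are secreted as latent dimers in which the propeptide stays bound to the growth factor. LTBP proteins tie that latent complex to fibrillin microfibrils and fibronectin in the matrix, from which integrins and proteases can release it. Free ligand binds the type II receptor, which recruits and phosphorylates the type I receptor, and the type I receptor then phosphorylates SMAD2 and SMAD3, which enter the nucleus with SMAD4. In arteries the pathway is known for its effects on smooth muscle contractile genes and on matrix production.

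Probes that carried the results are printed below, 5′ to 3′, because each value in the text is the signal of one such 60-base stretch and not of a whole transcript. Genome positions are given on oryCun2, as in the files. The files give no exon, coding or UTR label for them. The TGFBR2 probe, the only member probe past the test's threshold, covers bases 442 to 501 of its transcript model and lies at chr14:17706371-17730211 on the plus strand. That span is 23841 bases, so the probe crosses an intron.
TGFBR2: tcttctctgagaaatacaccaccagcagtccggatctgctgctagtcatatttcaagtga
The TGFBR1 probe that stood for its gene lies at chr1:14067845-14067904 on the minus strand. The other TGFBR1 probes abut it on either side, at chr1:14067905-14070723, which crosses an intron, and at chr1:14067788-14067844.
TGFBR1: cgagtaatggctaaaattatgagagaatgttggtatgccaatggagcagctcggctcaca
TGFB2 had 3 probes, of which neighbours overlap. The other ligands had 1 probe each. TGFB3 lies at chr20:29200914-29202612 on the plus strand and crosses an intron. The files give no genome position for TGFB1, whose probe had a G and C content of 55.0%.
TGFB1: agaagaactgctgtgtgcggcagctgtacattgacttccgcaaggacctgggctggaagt
TGFB3: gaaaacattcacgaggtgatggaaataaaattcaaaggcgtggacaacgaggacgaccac
LTBP1 had 2 probes that do not overlap, at chr2:152969994-152970053 and chr2:152969882-152969938 on the minus strand. The first stood for the gene.
LTBP1: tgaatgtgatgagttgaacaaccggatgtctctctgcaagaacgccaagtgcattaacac

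RNA was measured on 1-colour Agilent arrays. Values below are normalised log2 signals: the log2 of the scanner's background-subtracted signal minus the same array's 75th percentile, so that 0 is a probe at that percentile. The percentile was a signal of 157 to 251, and 58.7% to 63.7% of probes were well above background on an array. All 11 member probes were well above background on all 6 arrays, none was saturated, and all passed the filter on dim probes, as did 27413 probes in all. Signals of different probes are not compared, since each probe has its own brightness.

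Several arrays did not sort by group. Over the tested probes, the log2 difference between sham 2 and sham 3 had an SD of 0.38, while sham 1 differed from them with SDs of 1.28 and 1.28 and was nearer to ligated 2 (0.92) and ligated 1 (1.05). Ligated 3 was as near to sham 2 (0.96) and sham 3 (1.01) as to ligated 1 (1.02) and ligated 2 (0.94). The sham arrays shared 1 slide and the ligated arrays another, so effects of slide and of ligation cannot be told apart. Sham 3 was scanned on another day than the other 5 arrays. Of 10 spike-in controls, 3 were lower on every ligated array after scaling, and the changes of all 10 ran from −1.07 to 0.17. E1A_r60_3, E1A_r60_a104 and E1A_r60_1 changed by 0.17, 0.03 and 0.03. All other controls were lower in the ligated group on average, with changes from −1.07 to −0.36. Each member is therefore given also without sham 1 and without ligated 3. With 3 arrays in a group the number of arrays limits the precision.

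TGFBR2, the type II receptor that binds ligand first, was the 1 member that rose. Its normalised log2 signal was −3.22, −3.35 and −4.01 on sham arrays 1 to 3, against −0.93, −1.14 and −1.95 on ligated arrays 1 to 3. Every ligated array was above every sham array. The mean was −3.53 ± 0.43 (SD, n = 3 arrays) on sham and −1.34 ± 0.54 (SD, n = 3 arrays) on ligated arrays. The change was 2.19 ± 0.35 (SE) on the log2 scale, a 4.55-fold rise with a 95% interval of 2.56 to 8.10 (limma, adjusted p = 0.0168). By p it ranked 838 of the 27413 tested probes. In bulk RNA, a change in RNA per cell and a change in the share of cells that carry it cannot be told apart.

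**Figure D1:**
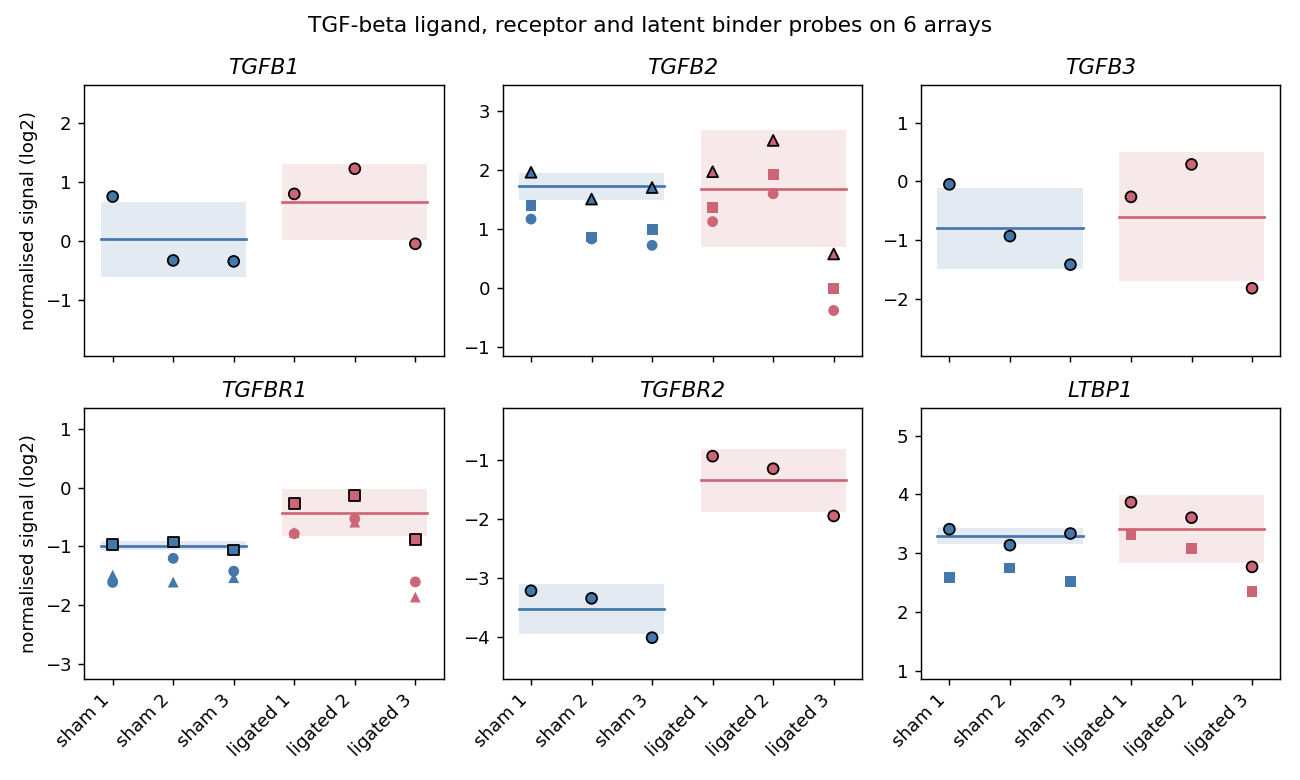
Normalised log2 signal (y axis, 0 at the array's 75th percentile) of the member probes on each of the 6 arrays. Each point is 1 probe on 1 array, black outlines mark the probe that stands for the gene, and lines with bands are that probe's group mean ± SD (n = 3). TGFBR2 lies between −4.01 and −3.22 on the sham arrays and between −1.95 and −0.93 on the ligated arrays.

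The TGFBR2 probe was dim. Its processed signal was 23.9, 20.4 and 13.9 in sham against 95.2, 114 and 40.7 in ligated rabbits, where the dimmest probes called above background had 11.9, 7.33 and 7.42 in sham and 7.33, 5.36 and 8.98 in ligated rabbits. With the normexp background correction, which adds an offset of 50, the change was 0.80 (limma, adjusted p = 0.789), and 0 of the 27413 probes passed against 2291. At an unadjusted p under 0.05, normexp gave 615 probes, against 7499 with the processed signal. With normexp after leaving out spots with a local background over 100, the TGFBR2 change was 0.97 (limma, adjusted p = 0.0196), and 2378 of 27382 probes passed.

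The TGFBR2 call also turned on single arrays. It held without sham 1 (2.34, limma adjusted p = 0.0268) and without ligated 3 (2.49, limma adjusted p = 0.0157), the arrays that stood nearest to the other group. It missed the threshold in limma without sham 2 (2.28, adjusted p = 0.0606), sham 3 (1.94, adjusted p = 0.0668), ligated 1 (1.98, adjusted p = 0.0553) or ligated 2 (2.09, adjusted p = 0.0693). With sham 2 and sham 3 averaged into 1 sample, because they were so close, the change was 2.11 (limma, adjusted p = 0.0591). The rise kept its direction in all 19 alternatives tried.

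**Figure D2:**
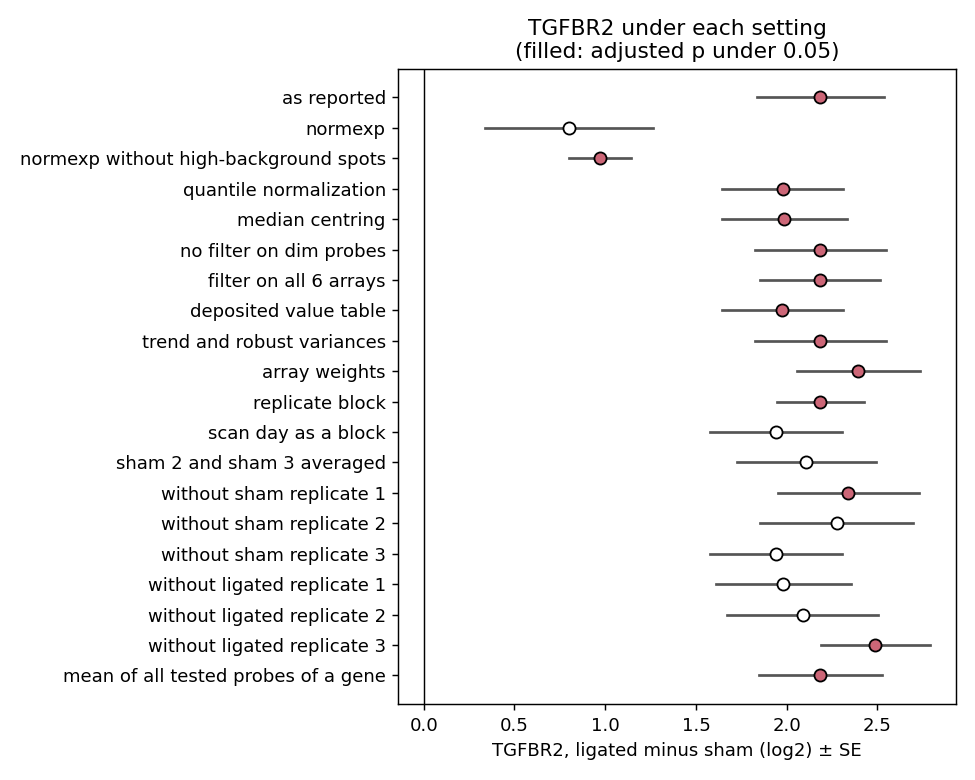
Change of TGFBR2, ligated minus sham (x axis, log2, bars are ± SE of the fit), as reported and under each of 19 alternatives. Filled points had an adjusted p under 0.05. The change runs from 0.80 with normexp to 2.49 without ligated 3.

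Of the 6 genes measured, 1 rose, 0 fell and 5 did not pass the test. Among the 7381 named genes tested, 6.30% rose and 2.70% fell, so 1 gene of 6 says little about the set. By probe, 1 of 11 rose, against 5.71% of all tested probes. The groups did not overlap for 2 of 6 genes, TGFBR2 and TGFBR1, both higher in ligated rabbits, against 18.0% of named genes that did not overlap in that direction. The median log2 change was 0.38 over the 6 genes and 0.01 over all tested probes.

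**Figure D3:**
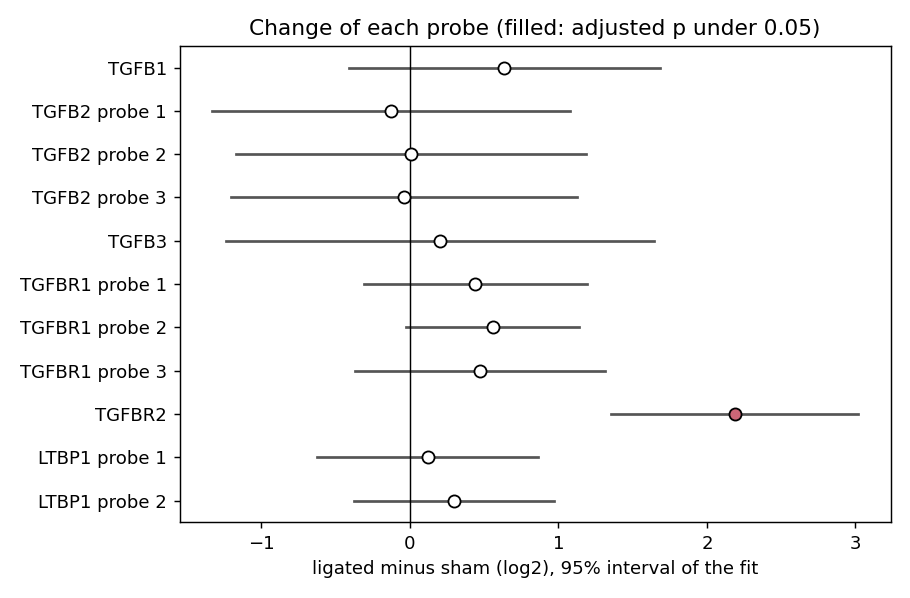
Change, ligated minus sham (log2), of each member probe with its 95% interval. The interval excludes 0 for TGFBR2 alone, where it runs from 1.35 to 3.02.

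TGFBR1, the type I receptor kinase that phosphorylates the SMADs, did not pass. Its normalised log2 signal was −0.97, −0.93 and −1.06 in sham against −0.27, −0.13 and −0.88 in ligated rabbits. All ligated values were above the sham values, although ligated 3 was only slightly so. The change was 0.56 ± 0.24 (SE), with a 95% interval of −0.02 to 1.14 (limma, adjusted p = 0.197). The neighbouring probes gave 0.47 and 0.44 and their groups overlapped (limma, adjusted p = 0.420 and 0.400). Without sham 1 the change was 0.57 (limma, adjusted p = 0.253), and without ligated 3 it was 0.78 (limma, adjusted p = 0.0633).

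The receptors were set against each other within arrays, which removes any scaling between arrays. TGFBR2 minus TGFBR1 was −2.25, −2.42 and −2.95 in sham against −0.66, −1.01 and −1.07 in ligated rabbits. The groups did not overlap, and the mean difference moved by 1.63 in favour of TGFBR2. The exact permutation test, two-sided, gave p = 0.1, the smallest that 3 against 3 arrays allow, and 0.4 after adjustment over the 4 pairs compared.

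The ligands did not pass the test. TGFB1, the ligand most often linked to matrix production in vessels, was at 0.76, −0.33 and −0.34 in sham against 0.80, 1.23 and −0.05 in ligated rabbits. Ligated 3 lay below sham 1, so the groups overlapped, and sham 1 was nearly as high as ligated 1. The change was 0.63 ± 0.44 (SE), with a 95% interval of −0.41 to 1.68 (limma, adjusted p = 0.386). It was 1.00 without sham 1 (limma, adjusted p = 0.167) and 0.99 without ligated 3 (limma, adjusted p = 0.175).

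TGFB2 was spread widely among the ligated arrays. The probe that stood for it was at 1.97, 1.51 and 1.71 in sham against 1.98, 2.51 and 0.58 in ligated rabbits. Ligated 2 was the highest of the 6 arrays and ligated 3 the lowest. The change was −0.04 ± 0.49 (SE), with a 95% interval of −1.21 to 1.12 (limma, adjusted p = 0.965). Its other probes gave −0.13 and 0.01 (limma, adjusted p = 0.887 and 0.993). Neighbouring probes share bases, so they are not independent readings. Without ligated 3 the change was 0.51 (limma, adjusted p = 0.249), and without sham 1 it was 0.08 (limma, adjusted p = 0.938).

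TGFB3 was at −0.05, −0.93 and −1.41 in sham against −0.26, 0.29 and −1.81 in ligated rabbits. Its lowest value was again on ligated 3, and sham 1 was above 2 of the 3 ligated arrays. The change was 0.20 ± 0.60 (SE), with a 95% interval of −1.24 to 1.64, which leaves room for a rise or a fall of more than the spread between arrays (limma, adjusted p = 0.849). Without sham 1 it was 0.58 (limma, adjusted p = 0.572), and without ligated 3 it was 0.81 (limma, adjusted p = 0.275).

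Within arrays, no pair of ligands moved apart by the exact permutation test, whose smallest p is 0.1. TGFB1 minus TGFB2 changed by 0.67 (exact p = 0.2, adjusted 0.4), TGFB1 minus TGFB3 by 0.43 (exact p = 0.3, adjusted 0.4), and TGFB2 minus TGFB3 by −0.24 (exact p = 0.7, adjusted 0.7). With 3 arrays a group this does not show that the ligands changed alike.

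LTBP1, which ties latent TGF-beta to the matrix, did not pass on either probe. The probe that stood for it was at 3.41, 3.14 and 3.34 in sham against 3.87, 3.60 and 2.77 in ligated rabbits. The sham arrays lay close together, with ligated 1 and ligated 2 above them and ligated 3 below. The change was 0.12 ± 0.31 (SE), with a 95% interval of −0.62 to 0.86 (limma, adjusted p = 0.825). The other probe gave 0.30 ± 0.28 (SE), also with its lowest value on ligated 3 (limma, adjusted p = 0.526). Without sham 1 the LTBP1 change was 0.18 (limma, adjusted p = 0.772), and without ligated 3 it was 0.44 (limma, adjusted p = 0.222).

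Ligated 3 was the lowest of the 6 arrays for 7 of the 11 member probes, all 3 of TGFB2, the TGFB3 probe, both of LTBP1 and 1 of TGFBR1. Neighbouring TGFB2 probes share bases, so the 7 are not independent readings. By gene, on the probe that stood for it, ligated 3 was lowest for 3 of 6. It was the lowest array for 16.7% of all tested probes. This array also had the highest erythroid marker signal. The summed signal of the 2 measured erythroid markers, in units of the array's 75th percentile, was 135, 274 and 265 in sham against 20.0, 22.7 and 428 in ligated rabbits. The 8 measured lymphocyte markers summed to 0.898, 6.26 and 6.45 in sham against 1.13, 1.66 and 4.76 in ligated rabbits. TGFB1, TGFB3, all 3 TGFB2 probes and the LTBP1 probe that stood for its gene were highest on sham 1, ligated 1 and ligated 2. These were the 3 arrays with the lowest sums of both lists, and of the 5 macrophage markers. Neutrophil and platelet sums did not follow this order. The 4 neutrophil markers summed to 3.84, 1.29 and 1.14 in sham against 2.85, 2.53 and 6.26 in ligated rabbits. The 2 platelet markers summed to 0.716, 0.376 and 0.273 against 0.268, 0.261 and 0.810. Of the lymphocyte markers, MS4A1 was highest on sham 1, and IL7R was higher on ligated 1 and ligated 2 than on any sham array. Over all tested probes, too, sham 1 was nearer to ligated 2 (SD of 0.92) and ligated 1 (1.05) than to the other sham arrays. The share of all tested probes that were highest on these 3 arrays was not counted. None of the 2 erythroid and 8 lymphocyte markers passed the test between groups. The part of blood cell RNA in the ligand and LTBP1 values was not tested.

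**Figure D4:**
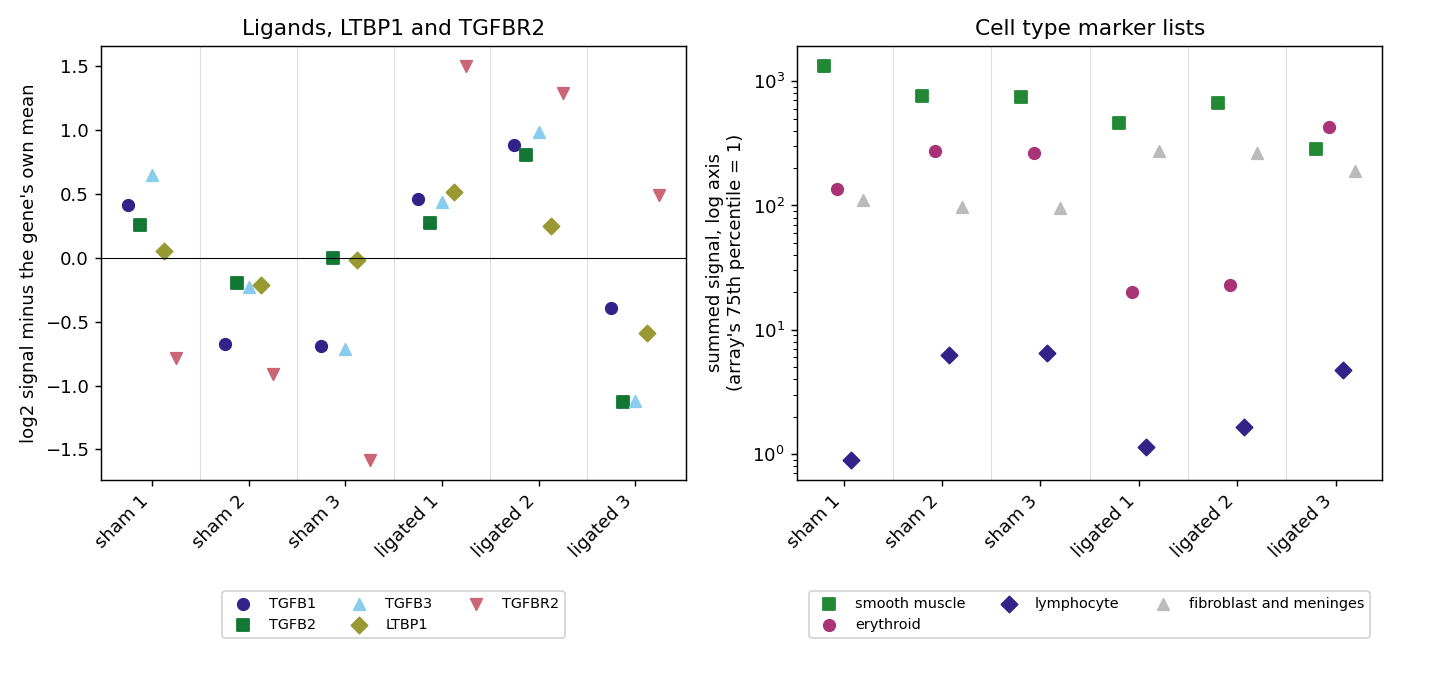
Left, log2 signal of the ligands, LTBP1 and TGFBR2 on each array minus the gene's own mean over the 6 arrays. Right, summed signal of 4 marker lists on each array (log axis, the array's 75th percentile is 1). The erythroid and lymphocyte sums are lowest on sham 1, ligated 1 and ligated 2, where the ligands and LTBP1 are highest.

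Markers of the labelled cell type were present on all arrays. MYH11, the smooth muscle myosin heavy chain, was between 6.44 and 7.64 on the sham arrays and between 5.16 and 6.05 on the ligated arrays. The summed signal of the 9 measured smooth muscle markers was 744 to 1333 in sham and 286 to 669 in ligated rabbits, and 2 of the 9 fell, SMTN by 1.77 and DES, on 1 of its 2 probes, by 1.11 on the log2 scale, against 2.70% of named genes that fell. Markers of other cells were present too. The 5 measured fibroblast and meningeal markers summed to 94.8 to 110 in sham and 189 to 274 in ligated rabbits, so their groups, like those of TGFBR2, did not overlap. Of these 5 markers, LUM, COL1A1 and MFAP5 rose, and none fell, against 6.30% of named genes that rose. DCN was counted by its brightest probe, which did not pass (0.36, limma adjusted p = 0.325), while 4 of its 6 probes rose. No marker passed among 4 endothelial (summed 49.9 to 101 in sham and 53.9 to 140 in ligated rabbits), 5 macrophage (8.85 to 19.1 and 8.45 to 32.2), 4 neutrophil and 2 platelet genes. The 1 neural gene tested, SYT1, was lower on 1 of its 3 probes, and its brightest probe did not pass (limma, adjusted p = 0.184). The part of these cells in the TGFBR2 change was not tested.

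The named genes whose profile over the 6 arrays lay nearest to that of TGFBR2, by root mean square difference after centring, were RNF144A, GLRX and PCOLCE. RNF144A, a ring finger protein, differed from it by 0.139. GLRX, a glutaredoxin, differed by 0.237, and PCOLCE, which enhances procollagen C-proteinase, by 0.242. GLRX and PCOLCE rose, by 1.98 and 2.09 on the log2 scale in turn. RNF144A was at −4.54, −4.95 and −5.27 on the sham arrays, below each array's dimmest probe called above background. It passed the filter on dim probes through the ligated arrays alone, so it had to differ. Its fitted change of 2.35 is therefore not a measured size. The 3 genes were picked for their likeness, so their changes are a description.

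The other genes of the pathway were read from 6 lists by role, which were chosen with earlier results of these data known. Of 90 genes listed, 68 had a probe and 61 were tested. Of these, 22 rose, 0 fell and 39 did not pass, against the 6.30% and 2.70% of all named genes. Their median log2 change was 0.84. Without FBN2, whose sham signal was near background, 21 of 60 rose with a median of 0.81. The count was 9 once sham 2 was left out, 8 once sham 3 was and 12 once ligated 2 was, and it was 0 with normexp, where 17 had an unadjusted p under 0.05.

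**Figure D5:**
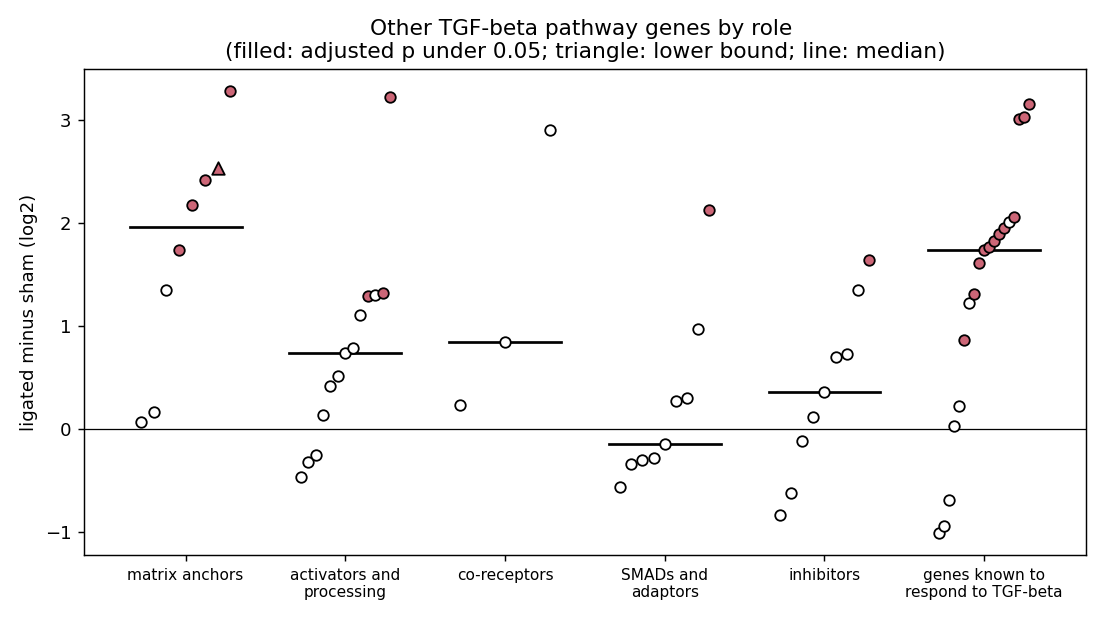
Change, ligated minus sham (log2), of the 61 tested pathway genes outside the member set, by role. Filled points had an adjusted p under 0.05, the triangle is a lower bound and the line is the list's median, which runs from −0.15 for SMADs and adaptors to 1.96 for matrix anchors.

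Among the matrix proteins that hold latent complexes or the microfibrils they bind to, 5 of 8 tested rose and none fell. Their median change was 1.96, and 6.30% of all named genes rose. FBN2 passed the filter on dim probes through the ligated arrays alone, and without it 4 of 7 rose with a median of 1.73. FN1, fibronectin, rose 5.33-fold (2.41 ± 0.24, SE) on all 11 of its probes (limma, adjusted p = 0.00442). It was at 5.34, 5.07 and 5.01 in sham against 7.47, 7.25 and 7.94 in ligated rabbits. FBN1, the main fibrillin of adult microfibrils, rose 4.52-fold (limma, adjusted p = 0.00509). FBN2, another fibrillin, stayed near background on the 3 sham arrays (0 of 3 well above it) and rose at least 5.78-fold, set against each array's dimmest probe called above background. Its limma adjusted p was 0.00921, but a gene that is tested only because 1 group is bright had to differ. Its measured mean was −5.00 in sham and −1.87 in ligated rabbits. FBLN5, an elastic fibre protein, rose by 1.73 ± 0.27 (SE), a call lost without sham 2, sham 3 or ligated 2 (1.67 to 1.78). The microfibril protein MFAP5 rose by 3.28, with 2 of 3 sham arrays well above background (limma, adjusted p = 0.0473), and lost its call when any array but sham 1 was left out (2.83 to 3.55). LTBP4, the 1 other latent binder tested, changed by 0.17 (limma, adjusted p = 0.747).

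Of 13 tested genes that process or activate latent TGF-beta, 3 rose and none fell, against 6.30% of named genes that rose. The list's median change was 0.74. BMP1, a procollagen C-proteinase that also cleaves LTBP1, was at 0.83, 0.81 and 0.91 in sham against 2.16, 2.28 and 2.08 in ligated rabbits. It rose by 1.32 ± 0.17 (SE; limma, adjusted p = 0.00920) and lost its call without sham 2 (1.30) or sham 3 (1.35). The gelatinases MMP9 (3.22, limma adjusted p = 0.0174, 2 of 3 sham arrays well above background) and MMP2 (1.29, limma adjusted p = 0.0177) rose as well. Both lost their calls without sham 2, sham 3 or ligated 2, where MMP9 changed by 2.84 to 3.24 and MMP2 by 1.13 to 1.30.

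No co-receptor passed among 3 tested. NRP1, neuropilin 1, which binds semaphorins, VEGF and latent TGF-beta, was at −2.20, −2.07 and −2.38 in sham against 2.57, 0.09 and −0.61 in ligated rabbits. Its groups did not overlap, but the ligated arrays were far apart, and the change of 2.90 ± 0.77 (SE) missed the threshold (limma, adjusted p = 0.0691). It passed without ligated 1 (1.95, limma adjusted p = 0.0308) or ligated 3 (3.54, limma adjusted p = 0.0423). TGFBR3, betaglycan, which presents ligand to TGFBR2, changed by 0.84 (limma, adjusted p = 0.163).

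Among SMADs and adaptors, 1 of 9 tested rose and none fell, with a median change of −0.15. With 6.30% of all named genes higher, 1 gene of 9 says little about the list. The gene that rose was DAB2, an endocytic adaptor that links the receptors to SMADs. It was at −1.69, −1.52 and −1.41 in sham against 1.10, 0.12 and 0.55 in ligated rabbits, a change of 2.12 ± 0.28 (SE; limma, adjusted p = 0.0100). The signal carriers SMAD2 (0.27, limma adjusted p = 0.577) and SMAD4 (−0.28, limma adjusted p = 0.339) did not pass. Of 9 inhibitors tested, 1 rose by its brightest probe, against the same 6.30%, which again says little about the list. That gene was BGN, the matrix proteoglycan biglycan that binds TGF-beta. BGN rose by 1.64 ± 0.26 (SE, limma adjusted p = 0.0159). It lost its call without sham 2, sham 3, ligated 1 or ligated 2 (1.5 to 1.73). Decorin, DCN, another proteoglycan of that list, rose on 4 of its 6 probes but not on the brightest.

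Genes known to respond to TGF-beta in cultured cells rose in 12 of 19 cases and none fell, against 6.30% of named genes that rose. The list's median change was 1.74. COL1A1, a chain of type I collagen, rose 8.12-fold (3.02 ± 0.28, SE; limma, adjusted p = 0.00374), from 3.18, 3.07 and 3.14 on the sham arrays to 6.52, 6.34 and 5.59 on the ligated arrays. The collagen chain gene COL5A1 rose by 1.89 ± 0.18 (SE), and SPHK1, a sphingosine kinase, on 1 of its 2 probes, by 1.77 ± 0.23 (SE). COL1A2, the partner chain of COL1A1, rose by 1.74 ± 0.23 (SE), a call lost without sham 3 (1.68). COL1A1 and MFAP5 also stand in the list of fibroblast and meningeal markers, whose summed signal did not overlap between the groups, and the part of those cells in these counts was not tested.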

How the data were processed

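Total RNA was labelled with Cy3 by a low-input 1-colour kit, per the labels' protocols, and Agilent Feature Extraction 10.7 quantified the images, per the submitters' processing notes. Per the file headers, the processed signal is an intensity from which each array's own background and spatial trend were removed, and arrays were not scaled to one another. The deposited raw signal and local background, used for normexp, are intensity values without such steps. The spot flags (well above background, saturated, outlier) are, per the file headers, 0 or 1. A value table deposited by the authors holds log2 values with array medians of 5.05, and its normalisation step was not stated in any source at hand.

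Outlier spots were left out, repeated spots averaged on the log2 scale and each array's 75th percentile subtracted. Probes well above background on at least 3 of 6 arrays entered 1 limma model (limma 3.58.1, R 4.3.3, two-sided, no covariate). P-values of the 27413 probes tested were adjusted together by Benjamini-Hochberg, and 0.05 was the threshold. Each gene is represented by its tested probe with the highest mean signal. The labels give 3 rabbits a group, but do not say whether each array held 1 rabbit. If not, the p-values measure a spread that may be partly technical.

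Of 43603 probes, 22099 had 1 symbol, 15 several and 21489 none, through a RefSeq table of mOryCun1.1, from which no coordinate was taken. The members, the pathway and marker lists and the tests were chosen with earlier results of these data known. From each pathway list, up to 4 passing genes with the smallest p are named, or up to 2 where none passed, and the 3 named genes nearest in profile to a member that passed. MFAP5, LTBP4, SMAD2 and SMAD4, and the markers SMTN, DES, LUM, DCN and SYT1, were added after their values were seen. In data simulated on 27384 probes for ligated against sham, with 200 changed, the fit found 1% of changes of 1 and 47% of changes of 2 on the log2 scale. Under the adjustment used, such shares depend on how many probes change. The real fit called 2291 of 27413 probes, so these shares do not give its power. Same-numbered sham and ligated arrays did not deviate together (correlations of 0.43, −0.57 and 0.58), so the arrays were not treated as pairs. Alternatives were other background corrections, scalings, filters and variance models, blocks, and leaving out each array. The sequences and positions of the TGFB2 probes are not reported here.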

Additional observations from a re-analysis of the deposited data

How the results depend on the processing

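Over 19 alternatives, the 6 member genes gave 114 values, of which 97 kept both direction and side of the threshold, 7 lost the TGFBR2 call and 10 changed sign. No gene but TGFBR2 passed under any of them. With normexp, with scan day as a block, and with sham 2 and sham 3 averaged, 0 member genes and 0 member probes rose, and leaving out arrays gave 0 to 1. The scan day block leaves out sham 3 in effect, because that array alone fills its day. The sign changes were in genes whose reported change was smaller than its SE, though values after a change of sign reached 0.51. TGFB2 was 0.033 with quantile normalization, 0.033 in the deposited table and 0.32 with array weights, and −0.45 to 0.51 when 1 array was left out. TGFB3 was −0.11 with the scan day block and −0.24 to 0.81 when 1 array was left out. LTBP1 was −0.079 with median centring and −0.11 to 0.44, and LTBP4 was −0.034 with median centring and −0.11 to 0.42. TGFB2 minus TGFB3 ran from −0.50 to 0.056. Of 61 pathway genes, 0 rose with normexp and 23 with normexp after leaving out the high-background spots. The count was 8 with the scan day block, 9 with sham 2 and sham 3 averaged, and 8 to 25 when 1 array was left out. With array weights 31 rose and 1, LEMD3, fell. The cause was not tested. The replicate block left TGFBR2 at 2.19 (limma, adjusted p = 0.0165) and 20 pathway genes higher, with 1295 probes called against 2291. Correlations between same-numbered arrays did not all point one way, so this is given as a value only. Median centring moved the median change of all probes from 0.01 to −0.19 and the share of calls that were higher from 68.3% to 52.2%, while TGFBR2 stayed at 1.99 (limma, adjusted p = 0.0197). Signal near background limits TGFBR2, FBN2, MMP9, MFAP5 and RNF144A.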

Other observations

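Relatives of TGF-beta in the same superfamily, the bone morphogenetic proteins (BMPs), activins and their receptors, were listed apart from the pathway genes. Of 27 listed, 16 were tested, 1 rose, 0 fell and 15 did not pass, with a median log2 change of 0.08. That count is near the 6.30% of all named genes that rose, so it is not a result about the family. BMP7, a BMP known from kidney and bone, was the gene that rose. It was at −0.88, −1.42 and −1.55 in sham against 0.29, 1.28 and 1.87 in ligated rabbits, with no overlap. The change was 2.43 ± 0.43 (SE), 5.38-fold, and all 5 of its probes passed (limma, adjusted p = 0.0224). Its call was lost without sham 2, sham 3 or ligated 2 (2.29 to 2.36). BMP7 was highest on ligated 3, the array on which TGFB2, TGFB3 and LTBP1 were lowest.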
